A study of Mus musculus with 87 samples.

Results

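The levels of 10 genes of TGF-beta and activin signalling were followed through the mouse liver after surgery. These were the ligands Tgfb1 and Tgfb2, the receptor genes Tgfbr1 and Tgfbr2, the activin beta subunits Inhba, Inhbb, Inhbc and Inhbe, the activin antagonist Fst (follistatin) and the inhibitory Smad gene Smad7. The 10 were chosen by gene symbol, with no measured value in the rule, out of 37991 genes in the table. Earlier results of these data were known when they were chosen. All 10 had 1 row each, and 9 of them passed the detection threshold of −1.5 log2 RPKM (reads per kb of transcript per M mapped reads) in at least 1 library, as 15396 genes did in all. Tgfb2 passed it in 0 of 80 libraries and was not tested.

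The mice were male C57BL/6 animals of 12 to 14 weeks, entrained to a light and dark cycle with feeding at night, and operated at Zeitgeber time (ZT, hours after lights on) 2. Poly(A) RNA of each liver was 1 library. The X groups had a partial hepatectomy (PH), in which a large part of the liver is removed, and were taken over the first day (X1, X4, X10 and X20, each number giving hours after surgery), over the following days (X28, X36, X44, X48 and X72), after 1 week (X1W) and after 4 weeks (X4W). The S groups had a sham operation that opened the abdomen and left the liver whole, and were taken at 5 of these times (S1, S4, S10, S20 and S48). Both operations were done under isoflurane anaesthesia, so the sham livers share the anaesthesia and the laparotomy with the PH livers. The C groups had no surgery and were taken at 0 h (C0), 4 h (C4) and 4 weeks (C4W). The 80 libraries used fall into 19 groups, with 9 livers in C0, 6 each in S1, X1, X10, X20 and X36, 5 each in S4 and X48, 2 each in C4W and X4W and 3 in every other group. Depth was 12.2 to 48.8 M (mega) reads per library, with a median of 26.8. The hour of surgery was fixed. X48, S48 and X72 were taken at the same hour as C0 (ZT 2), and the other operated groups up to 44 h at another hour, so that for those groups time after surgery and time of day cannot be told apart against C0, whose 9 livers are shared by all comparisons with it. Per the study's supplement the experiments were run in 3 separate periods, with C0 in all 3. S1, S4, X1, X4, X10, X20 and X36 were split over the first and the second period. Only replicates 4 to 6 of X4 had values here, so the X4 livers used may all come from 1 period. X28, X44, X48, X72, X1W and S48 belong to the first alone, S10, S20, C4W and X4W to the second alone, and C4 to the third alone. The labels do not say which numbered liver belongs to which period, so all livers of a group were pooled, and sets of 3 replicate numbers (1 to 3, 4 to 6 and 7 to 9) were compared as alternatives. A period cannot be told apart from a group that it alone holds. The 7 hepatocyte markers, albumin among them, summed to 25960 to 58930 RPKM in the 80 livers. The tissue is a mix of cell types, and fewer cells of a type cannot be told apart from less RNA per cell.

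TGF-beta binds the type II receptor encoded by Tgfbr2, which recruits and activates the type I receptor encoded by Tgfbr1, and the signal passes to the nucleus through Smad proteins. Activins are dimers of beta subunits and signal through receptors of their own to the same Smads, while follistatin binds activins and keeps them from their receptors. In the liver, TGF-beta and activin A (a dimer of the Inhba product) are known as brakes on hepatocyte division, Inhbc and Inhbe are subunits made mainly by hepatocytes, and Smad7 is induced by the pathway and blocks the type I receptor.

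On mm9, the build of the files, Inhbe lies on the minus strand of chromosome 10 from 126786458 to 126788828. Inhbc lies on the same strand from 126793384 to 126807600, with 4555 bases between the 2 genes. Reads were assigned by strand, which does not separate neighbours on 1 strand. The other subunits and Fst lie apart from them, Inhba on chromosome 13 from 16103684 to 16119044 (plus strand), Inhbb on chromosome 1 from 121312042 to 121318825 (minus strand) and Fst on chromosome 13 from 115242470 to 115249159 (minus strand). The ligand and receptor genes lie on chromosome 7 from 26472021 to 26490096 (Tgfb1, plus strand), chromosome 1 from 188447065 to 188529871 (Tgfb2, minus strand), chromosome 4 from 47366094 to 47427803 (Tgfbr1, plus strand) and chromosome 9 from 115993415 to 116084383 (Tgfbr2, minus strand). The bases before the RefSeq start of the 2 neighbours are shown because these subunits dominate the level of the family and moved by different amounts. They are the 250 bases upstream on build GRCm38.p6, minus strand, at chr10:127351849-127352098 for Inhbe and chr10:127370549-127370798 for Inhbc, written 5′ to 3′ with motif matches in capitals.
Inhbe: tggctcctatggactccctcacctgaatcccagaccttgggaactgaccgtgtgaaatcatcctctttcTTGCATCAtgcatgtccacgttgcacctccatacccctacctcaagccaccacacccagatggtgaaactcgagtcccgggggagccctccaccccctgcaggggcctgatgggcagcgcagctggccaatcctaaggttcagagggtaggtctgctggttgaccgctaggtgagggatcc
Inhbc: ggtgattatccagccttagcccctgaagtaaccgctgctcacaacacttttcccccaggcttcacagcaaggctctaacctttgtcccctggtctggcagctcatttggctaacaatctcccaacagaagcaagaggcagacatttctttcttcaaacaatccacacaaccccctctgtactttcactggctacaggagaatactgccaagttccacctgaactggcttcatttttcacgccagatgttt
Each 250-base window was searched on both strands for TGATGNAA (a C/EBP-ATF element), TGANTCA (AP-1), TGACGTCA (a cAMP response element) and AGCCAGACA (a Smad element). Inhbe held 1 match, to TGATGNAA on the opposite strand, starting 181 bases before the start, and 3.45% of 32851 promoters held this motif. The windows of Inhbc and of the 6 other members with an entry (Tgfb1, Tgfb2, Tgfbr1, Tgfbr2, Inhba and Inhbb) held no match to these 4 motifs, which says only that the letters are not in the window. The other motifs were held by 6.75% (TGANTCA), 1.55% (TGACGTCA) and 0.301% (AGCCAGACA) of promoters.

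Inhbb, the subunit of activin B, was the member that set PH apart from sham most often. In C0 livers it stood at 0.0987, 0.147 and 0.298 RPKM (lowest, median and highest of 9). Inhbb passed the detection threshold in 46 of 80 libraries, and every C0, S20 and S48 liver was below it. One hour after PH it stood at 0.634, 0.987 and 1.18 RPKM in the 6 livers, against 0.0772, 0.372 and 0.407 in the 6 sham livers. Every X1 liver was above every S1 liver. The difference was 1.20 ± 0.19 (SE) on log2(RPKM + 0.25), a scale that understates the change of a gene this low (limma, adjusted p = 7.41e-05). It was the only one of the 9 members tested that was called at 1 h, meaning an adjusted p below 0.05 and a difference above 0.5, where 0.650% of all 15396 genes tested were called (0.624% higher and 0.0260% lower in PH). In the fit of these 2 groups alone the difference stayed at 1.20 with an adjusted p of 0.0668. The estimated reads behind Inhbb ranged from 4 to 355 per library, so its lowest values rest on few reads.

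At 4 h Inhbb was high after both operations. The sham livers held 1.71, 0.549, 1.33, 1.28 and 1.27 RPKM and the 3 PH livers 0.884, 1.18 and 1.58. The X4 and S4 livers overlapped, and their difference was 0.02 ± 0.25. Against C0 the increase was 1.80 ± 0.22 in X4 (adjusted p = 4.49e-10) and 1.78 ± 0.19 in S4 (adjusted p = 1.52e-12). At the later times the increases over C0 were 1.72 ± 0.18 in X10, 1.40 ± 0.18 in X20, 1.41 ± 0.22 in X28 and 0.82 ± 0.18 in X36, and 0.99 ± 0.22 in S10 (adjusted p = 0.000195), all called.

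After 4 h the sham and PH levels of Inhbb parted again. At 10 h sham livers held 0.474, 0.697 and 0.562 RPKM and the 6 PH livers 0.974, 1.10 and 1.32 (lowest, median and highest), without overlap. The difference of 0.73 ± 0.24 was called (adjusted p = 0.0324), with 7.02% of genes called. This call was lost without any of S10 replicates 1, 2 and 3 or X10 replicates 1 and 5, where the adjusted p ran from 0.0554 (without S10 replicate 2) to 0.149 (without S10 replicate 1), and with either replicates 1 to 3 or 4 to 6 of PH alone (adjusted p = 0.0557 and 0.108). It was also lost with no filter on low values (limma, adjusted p = 0.0762). With a pseudocount (the amount added to RPKM) of 0.1 the adjusted p was 0.0708, and with 1 the difference was 0.43, below the size needed. At 20 h sham livers were at 0.193, 0.295 and 0.276 RPKM and PH livers at 0.527, 0.813 and 1.14. All 6 PH livers were above the sham livers, by 1.12 ± 0.24 (adjusted p = 0.000961), and this call held when each of the 9 libraries was left out. Of all genes, 7.11% were called at 20 h.

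Inhbb stayed high in PH livers at 28 h (0.964, 1.16 and 0.528 RPKM) and was lower at the later times. In X36 it stood at 0.189, 0.503 and 0.758 RPKM, in X44 at 0.295, 0.462 and 0.269, and in X48 at 0.370, 0.211, 0.158, 0.194 and 0.203, beside 0.177, 0.237 and 0.321 in S48. X48 and S48 overlapped and differed by −0.06 ± 0.25. The PH-minus-sham difference at 48 h was 0.79 ± 0.34 smaller than at 10 h (−0.79 on the log2 scale), which was not called (adjusted p = 0.0757) and was called once the libraries were scaled to 1 common median (−1.0, adjusted p = 0.0352).

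**Figure D1:**
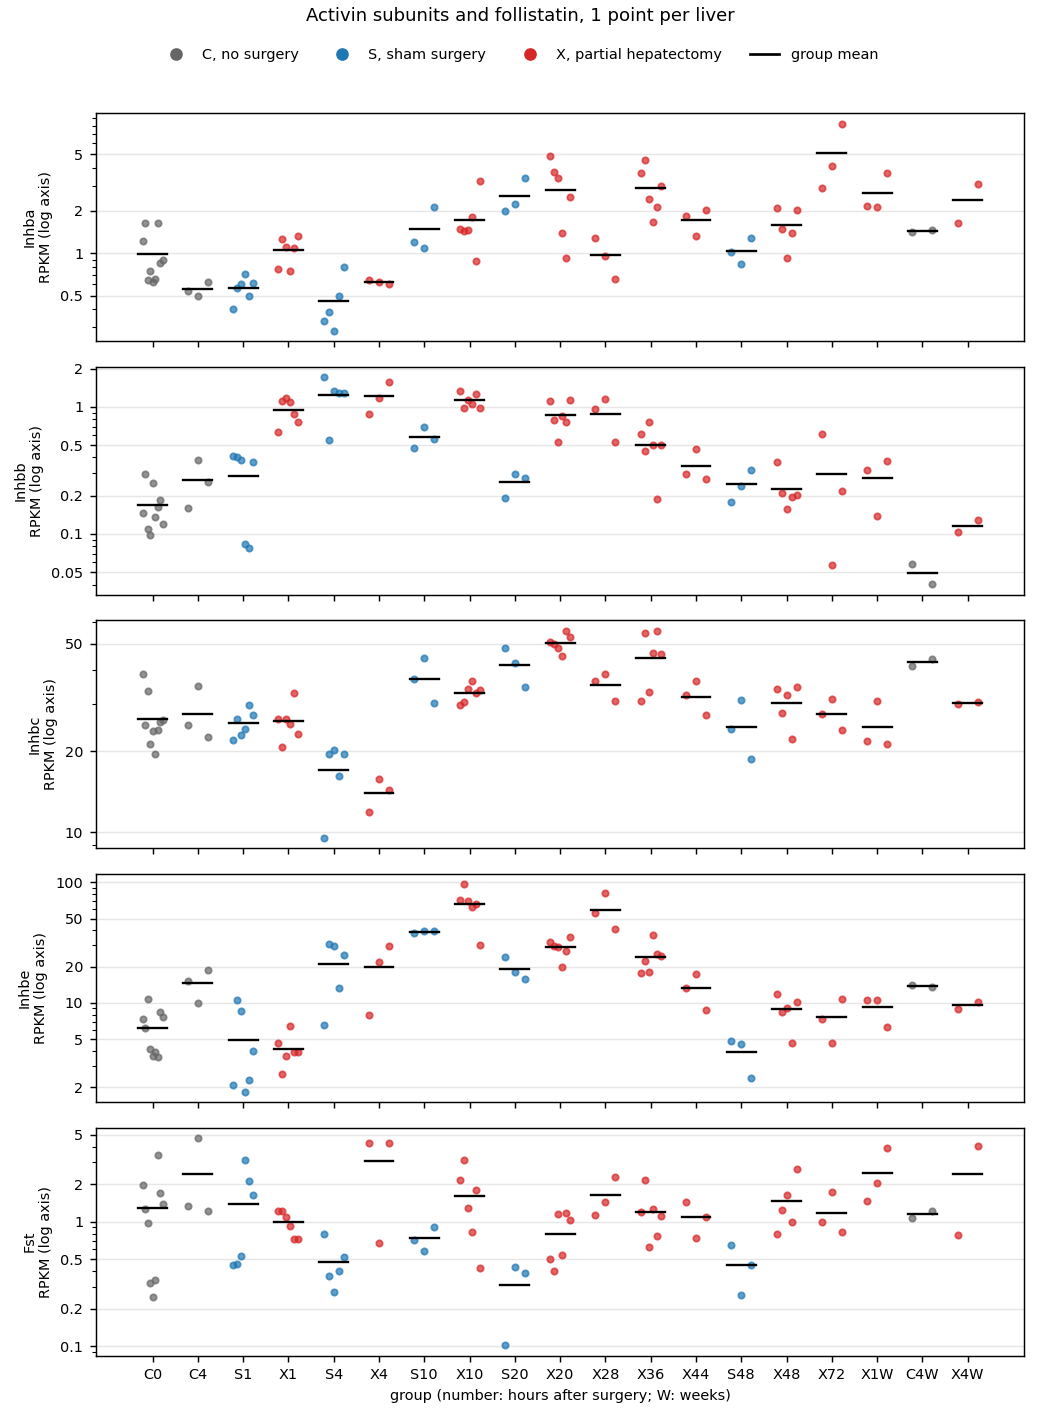
RPKM (log axis) of Inhba, Inhbb, Inhbc, Inhbe and Fst in each liver, by group, with a point per liver, a bar at the group mean, and C, S and X livers in grey, blue and red. Inhbb in X1 (0.634 to 1.18 RPKM) lies above S1, and Inhbe is highest in X10 and X28.

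Inhbe, the subunit of activin E, had the widest range of group means on log2(RPKM + 0.25) among the members tested (3.97), a scale that compresses Inhbb, whose highest RPKM mean was 25.0 times its lowest against 16.8 times for Inhbe. Its means ran from 3.93 ± 1.35 RPKM (SD, n = 3) in S48 to 66.0 ± 21.2 (n = 6) in X10. In C0 livers it was 3.56, 6.21 and 10.8 RPKM (lowest, median and highest of 9). At 1 h neither operation differed from C0 by a called amount, and of all members only Inhbb in X1 was called against C0 (13.5% of genes called in X1 and 7.77% in S1). At 4 h it was 7.96, 21.9 and 29.7 RPKM in X4 and 6.62, 30.6, 29.5, 13.3 and 24.8 in S4, with 15.1, 9.96 and 18.9 in unoperated C4 livers. These 3 groups overlapped. Against C0, X4 was higher by 1.56 ± 0.38 (adjusted p = 0.000349), S4 by 1.63 ± 0.32 (adjusted p = 1.11e-05) and C4, which had no surgery, by 1.27 ± 0.38 (adjusted p = 0.0163). With C4 as the control, X4 was higher by 0.29 (adjusted p = 0.625) and S4 by 0.36 (adjusted p = 0.481), so neither call was kept. The C4 call was itself lost without C4 replicate 1 (adjusted p = 0.0624) or C4 replicate 3 (adjusted p = 0.109). Called genes made up 38.2% (X4), 34.4% (S4) and 7.89% (C4) of those tested against C0.

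At 10 h Inhbe reached 38.0, 39.2 and 39.2 RPKM in the 3 sham livers and 30.2, 67.9 and 96.2 (lowest, median and highest) in the 6 PH livers. The other PH livers (62.5 RPKM and above) were over the sham range, but X10 replicate 6, at 30.2 RPKM, was below it. The PH-minus-sham difference of 0.68 ± 0.40 was not called (adjusted p = 0.294). Both groups were far above C0, X10 by 3.39 ± 0.30 (10.5-fold, adjusted p = 1.23e-15) and S10 by 2.71 ± 0.38 (6.53-fold, adjusted p = 2.07e-08), with no overlap with C0. At 20 h the levels were 23.9, 18.2 and 15.7 RPKM in S20 and 19.9, 29.2 and 35.4 in X20, a difference of 0.58 ± 0.40 (adjusted p = 0.367). Against C0 both were higher, X20 by 2.26 ± 0.30 and S20 by 1.68 ± 0.38 (adjusted p = 0.000658).

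At 28 h, a time with no sham group, Inhbe stood at 55.8, 81.3 and 41.0 RPKM, 3.26 ± 0.38 above C0 (adjusted p = 1.25e-10). X28 shares its time of day, ZT 6, with C4, whose highest liver was at 18.9 RPKM, and the call was kept with C4 as the control. It was lower at the later times. X36 livers held 17.7 to 36.9 RPKM, X44 livers 8.77 to 17.5, X48 livers 4.68 to 11.8 and X72 livers 4.67 to 10.8. X36 was 1.98 ± 0.30 above C0 and X44 1.11 ± 0.38 (adjusted p = 0.00973). The X44 call was lost without X44 replicate 2 (0.89, adjusted p = 0.0914), with C0 replicates 1 to 3 alone (0.67) and with the libraries scaled to 1 common median (0.61). In S48 it was 4.87, 4.55 and 2.38 RPKM, and X48 was higher by 1.12 ± 0.41 (adjusted p = 0.0231), although X48 replicate 4 (4.68 RPKM) fell within the sham range. Without S48 replicate 3 the difference was 0.81 (adjusted p = 0.172), and without X48 replicate 1 it was 1.00 (adjusted p = 0.0554). Against C0, X48 was not called (0.54 ± 0.32 in a comparison that called 38.1% of genes), nor was S48 (8.88% of genes called, and 0 of the members).

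Inhbc, the subunit of activin C, was the most abundant subunit in most groups and moved less. It was 19.5, 25.0 and 38.5 RPKM in C0 (lowest, median and highest of 9). At 4 h it fell in both operated groups, to 11.9, 15.7 and 14.4 RPKM in X4 and 9.53, 19.6, 20.2, 16.1 and 19.5 in S4. The X4 livers lay below all C0 livers (−0.88 ± 0.17, adjusted p = 1.23e-05), S4 was lower by 0.65 ± 0.14 (−0.65, adjusted p = 8.86e-05), and the 2 operated groups differed from each other by −0.23 ± 0.19 with no call. Without S4 replicate 1 the fall in S4 was −0.45, short of the size needed for a call. The C4 livers, at 25.0, 34.8 and 22.5 RPKM, lay within the range of C0.

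By 20 h Inhbc was at 48.4, 42.4 and 34.7 RPKM in S20 and 45.0, 50.2 and 55.9 in X20, its highest group. Both were above C0, S20 by 0.68 ± 0.17 (adjusted p = 0.00218) and X20 by 0.96 ± 0.14 (adjusted p = 1.68e-08), and X20 exceeded S20 by 0.28 ± 0.18 with no call. S20 called 12.1% of genes against C0 and X20 24.1%. X36 (30.7 to 55.6 RPKM) was higher by 0.74 ± 0.14, which was lost under scaling to 1 common median (0.36) and with C0 replicates 1 to 3 alone (0.44). S10 was higher by 0.50 ± 0.17 (adjusted p = 0.0125), at the size needed, and this was lost without any of C0 replicates 2, 4, 5, 6, 7 and 8 or S10 replicates 1 and 2 (0.37 to 0.50). In none of the 5 PH-to-sham comparisons was Inhbc called.

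**Figure D2:**
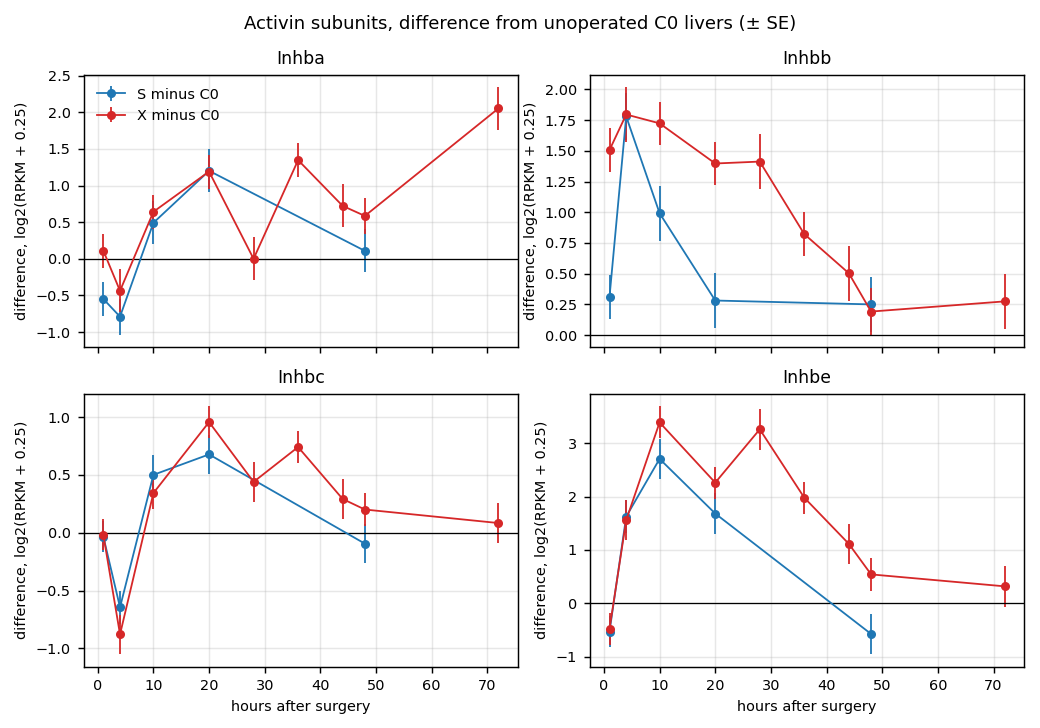
Difference from C0 on log2(RPKM + 0.25), with SE, against hours after surgery for the 4 activin beta subunits, sham in blue and PH in red, both sharing the 9 C0 livers. Inhbe rose to 2.71 in S10 and 3.39 in X10, and Inhbb parts between PH and sham at 1, 10 and 20 h and not at 4 or 48 h.

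Inhba, the subunit of activin A, had a course of its own. It was 0.627, 0.848 and 1.64 RPKM in C0 (lowest, median and highest of 9). At 1 h all 6 X1 livers (0.747 to 1.32 RPKM) lay above the 6 S1 livers (0.405 to 0.712), and the difference of 0.66 ± 0.25 was not called (adjusted p = 0.349). At 4 h it was low in every group taken at that time, at 0.650, 0.623 and 0.602 RPKM in X4, 0.330, 0.380, 0.282, 0.493 and 0.796 in S4 and 0.538, 0.498 and 0.626 in C4. Of these 3 only S4 was called against C0 (−0.79 ± 0.25, adjusted p = 0.00441), and with C4 as the control S4 was not (−0.23, adjusted p = 0.571).

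At 10 h Inhba was 0.64 ± 0.23 above C0 in X10 (adjusted p = 0.0136), a call that was lost without X10 replicate 6 (0.46, adjusted p = 0.0901). At 20 h Inhba was higher than C0 after both operations, at 2.00, 2.22 and 3.39 RPKM in S20 and 0.917, 2.96 and 4.85 in X20. The increases were 1.20 ± 0.29 (adjusted p = 0.00159) and 1.19 ± 0.23 (adjusted p = 1.53e-05), and X20 and S20 differed by −0.01 ± 0.31. The X20 livers spread with their replicate number, at 3.40 to 4.85 RPKM in replicates 1 to 3 and 0.917 to 2.51 in replicates 4 to 6. With replicates 4 to 6 alone the increase of X20 was 0.55 and not called (adjusted p = 0.0886).

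At 72 h and 1 week after PH, Inhba was the only subunit called against C0. X28 livers still held 1.29, 0.950 and 0.652 RPKM. X36 livers reached 1.67 to 4.58, X44 livers 1.83, 1.32 and 2.03 and the 5 X48 livers 0.926 to 2.10. X72 livers held 2.90, 4.17 and 8.28 RPKM, the highest group mean, and X1W livers 2.14, 2.13 and 3.71. X36 (1.35 ± 0.23, adjusted p = 8.57e-07), X72 (2.05 ± 0.29, 4.15-fold, adjusted p = 2.28e-08) and X1W (1.25 ± 0.29, adjusted p = 0.000632) lay wholly above C0. Those 3 comparisons called 35.0%, 33.2% and 16.9% of genes. The calls at 44 h (0.72 ± 0.29) and 48 h (0.59 ± 0.25) were lost once the libraries were scaled to 1 common median (0.29 and 0.17). The 44 h call was lost as well without C0 replicate 5 or X44 replicate 1 or 3 (adjusted p from 0.0511 to 0.136). The 48 h call was lost without any of C0 replicates 3 to 6 or X48 replicate 1 or 5 (adjusted p from 0.0528 to 0.111). At 48 h X48 was 0.48 ± 0.32 above S48 (1.01, 0.834 and 1.27 RPKM), which was not called. No sham group was taken at 28, 36, 44 or 72 h or at 1 week.

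The RPKM of the 4 beta subunits, summed per liver, measures how the family was made up. In C0 Inhbc gave 78.6% ± 4.0 (SD, n = 9) of the sum, Inhbe 17.9% ± 4.5, Inhba 3.03% ± 1.3 and Inhbb 0.525% ± 0.24. At 4 h Inhbe gave 52.3% ± 14 in X4 (n = 3) and 50.0% ± 10 in S4 (n = 5), and Inhbc 42.2% ± 12 and 44.8% ± 6.8. At 10 h the share of Inhbe was 63.3% ± 10 in X10 (n = 6) and 50.0% ± 4.2 in S10 (n = 3), and the summed RPKM was 102 ± 20 and 77.9 ± 6.7 against 33.7 ± 7.9 in C0. In X28 Inhbe held 60.7% ± 5.3 of the sum. At 20 h Inhbc led again, with 61.1% ± 4.3 in X20 and 65.5% ± 1.5 in S20. Unoperated C4 livers gave Inhbe 34.5% ± 12. The share of Inhba was 12.4% ± 6.1 in X72, and its highest value in any liver was 19.2% in X72 replicate 3. The share of Inhbb reached 9.40% in 1 liver, S4 replicate 1, where the summed RPKM was the lowest of all (18.2). These shares are of RNA level per length and were not tested.

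**Figure D3:**
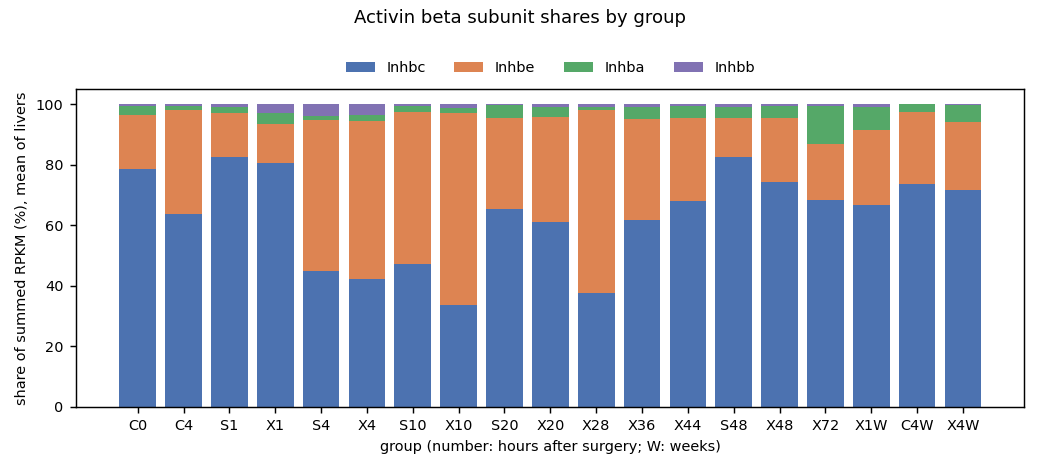
Mean share (percent) of Inhbc, Inhbe, Inhba and Inhbb in their summed RPKM in each group, as stacked bars that add up to all of the sum. Inhbe takes the larger part in X4 (52.3%), S4, S10, X10 (63.3%) and X28 (60.7%), and Inhbc in C0 (78.6%).

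Fst, whose product binds activins, varied widely between livers of 1 group. In C0 it was 1.98, 1.26 and 0.981 RPKM in replicates 1 to 3, 0.324, 0.25 and 0.338 in replicates 4 to 6 and 3.42, 1.70 and 1.39 in replicates 7 to 9, so that 1 set of 3 lay below the others. For this reason its differences from C0 depend on the C0 livers used. X48 minus C0, for example, was 0.35 with all 9 and 1.54 with replicates 4 to 6 alone (adjusted p = 0.00391). The X4 increase over C0 (1.07 ± 0.47, adjusted p = 0.0452) was 0.23 with C0 replicates 7 to 9 alone, and it was lost without any of C0 replicates 3 to 6 or X4 replicate 4 or 6 (adjusted p from 0.0520 to 0.312). The fall in S20 (−1.24 ± 0.47, adjusted p = 0.0427) was −0.05 with C0 replicates 4 to 6 alone, and it was lost without any of the 3 S20 livers or C0 replicates 1, 2, 7, 8 and 9 (adjusted p from 0.0525 to 0.258).

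At 4 h Fst was 4.25, 0.669 and 4.31 RPKM in the 3 PH livers and 0.797, 0.364, 0.270, 0.400 and 0.518 in the 5 sham livers. X4 replicates 4 and 6 were far above the sham livers and replicate 5 was within their range. The difference of 1.93 ± 0.51 (3.81-fold) was called (adjusted p = 0.00573), with 8.64% of genes called. Without X4 replicate 4 it was 1.55 (adjusted p = 0.0784) and without X4 replicate 6 it was 1.54 (adjusted p = 0.0876). The fit of these 2 groups alone gave 1.93 with an adjusted p of 0.0708.

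The X livers were also above sham in mean Fst at 10, 20 and 48 h. At 10 h the values were 0.716, 0.580 and 0.912 RPKM in S10 and 0.426, 1.55 and 3.13 (lowest, median and highest) in X10, overlapping, with a difference of 0.74 ± 0.50 (adjusted p = 0.379). At 20 h they were 0.102, 0.431 and 0.388 in S20 and 0.405, 0.787 and 1.17 in X20, with a difference of 0.90 ± 0.50 (adjusted p = 0.238). Neither was called. At 48 h the 5 PH livers (0.799, 1.25, 1.63, 0.998 and 2.67 RPKM) all lay above the 3 sham livers (0.648, 0.256 and 0.446), a difference of 1.24 ± 0.51 that was called (adjusted p = 0.0428). That call was lost on leaving out any of S48 replicates 1, 2 and 3 and X48 replicates 2, 3 and 5 (adjusted p from 0.0506, without X48 replicate 2, to 0.165, without S48 replicate 2).

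At 1 h the replicate numbers of Fst split the sham livers. S1 replicates 1 to 3 were at 0.452 to 0.527 RPKM and replicates 4 to 6 at 1.62 to 3.11, while X1 stood at 1.08 to 1.23 and 0.728 to 0.917 in the same sets. X1 was thus above S1 in replicates 1 to 3 and below it in replicates 4 to 6, and the pooled difference was −0.14 ± 0.41. Fst per summed beta subunit RPKM was 0.103 ± 0.091 (SD, n = 3) in X4, the highest group mean, 0.0381 ± 0.033 in C0 and 0.00513 ± 0.0033 in S20, the lowest. The ratio stood at 0.0149 ± 0.0072 in X10 and 0.00960 ± 0.0029 in S10. Its denominator is mainly Inhbc and Inhbe (78.6% and 17.9% of the sum in C0). Whether follistatin binds the products of these 2 genes was not tested, so the ratio is no measure of activin blocking.

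Tgfbr1 and Tgfbr2, the receptor genes, had different courses. Tgfbr1 was 1.75, 2.54 and 3.11 RPKM in C0 (lowest, median and highest of 9). At 10 h it was 5.00, 5.25 and 4.82 RPKM in S10 and 4.47, 5.09 and 5.23 in X10. These 2 groups overlapped (−0.01 ± 0.12), and each lay wholly above C0, S10 by 0.92 ± 0.11 (adjusted p = 6.73e-10, 29.1% of genes called) and X10 by 0.91 ± 0.09 (adjusted p = 7.73e-14, 36.4% called). At 20 h sham livers held 2.97, 2.94 and 3.31 RPKM and PH livers 3.41, 4.21 and 4.37, without overlap. The difference of 0.36 ± 0.12 had an adjusted p of 0.0385 and was below the size needed for a call.

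PH livers kept Tgfbr1 high later on. X28 livers held 3.54 to 4.26 RPKM, X36 livers 3.67 to 4.87 and X44 livers 3.75 to 4.82. At 48 h the PH livers held 4.76, 4.37, 4.36, 4.25 and 5.25 RPKM and the sham livers 3.31, 2.93 and 3.16, without overlap. X48 exceeded S48 by 0.52 ± 0.12 (adjusted p = 0.000494). Without S48 replicate 2 or X48 replicate 5 the difference was 0.47, just under the size needed. Against C0, Tgfbr1 was called at 10, 20, 28, 36, 44 and 48 h after PH, where 36.4%, 24.1%, 24.9%, 35.0%, 39.2% and 38.1% of genes were called. With the libraries scaled to 1 common median the differences at 20, 36, 44 and 48 h were 0.39, 0.39, 0.27 and 0.33, below the size needed, and those at 10 and 28 h were still called. The 28 h difference was lost with C4, taken at the same hour, as the control (0.32, adjusted p = 0.0519), with C0 replicates 1 to 3 alone (0.46) and with the replicate number as a block (0.49). In S4 (5.10, 4.17, 4.87, 3.11 and 4.04 RPKM) Tgfbr1 was 0.68 ± 0.09 above C0, which was also below the size needed with C4 as the control (0.43).

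Tgfbr2 was 1.75, 1.98 and 2.56 RPKM in C0 (lowest, median and highest of 9). At 4 h all 3 PH livers (3.04, 4.04 and 3.02 RPKM) were above the 5 sham livers (2.25, 1.48, 1.5, 1.96 and 2.85), with a difference of 0.70 ± 0.18 (adjusted p = 0.00416), and X4 was 0.63 ± 0.17 above C0. Without X4 replicate 5 it was 0.57 (adjusted p = 0.0658). With replicates 4 to 6 of both groups alone (3 X4 and 2 S4 livers) it was 0.46 (adjusted p = 0.0812). At 10 and 20 h PH and sham livers overlapped and no call was made. At 1 h S1 replicates 1 to 3 (1.19 to 1.58 RPKM) lay below replicates 4 to 6 (2.31 to 2.62), and X1 and S1 differed by 0.03 ± 0.14.

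Later Tgfbr2 rose again after PH, to 2.80, 3.29 and 3.56 RPKM in X28, 2.57, 3.79 and 4.59 in X36, 3.80, 3.21 and 3.91 in X72 and 3.63, 3.16 and 4.44 in X1W, all 4 groups wholly above C0. The differences from C0 were 0.58 ± 0.17 in X28, 0.75 ± 0.13 in X36, 0.75 ± 0.17 in X72 and 0.78 ± 0.17 in X1W (adjusted p = 0.000209). Between these times the X44 livers (2.42 to 3.2 RPKM) overlapped C0, with a difference of 0.38 that was not called. X48 was 0.52 ± 0.14 above C0, which fell below the size needed without C0 replicate 4 or 5 or X48 replicate 4 or 5 (0.48 to 0.50). With C0 replicates 1 to 3 alone X28 (0.51, adjusted p = 0.0511) and X48 (0.45) were not called. With the libraries scaled to 1 common median the increases over C0 in X36, X48 and X72 were 0.40, 0.06 and 0.39 and were not called. In X36 replicates 1 to 3 (4.26 to 4.59 RPKM) lay above replicates 4 to 6 (2.57 to 3.32). At 48 h the PH livers held 2.50, 3.17, 2.97, 3.31 and 3.41 RPKM and the sham livers 1.66, 1.47 and 2.12, without overlap, and the difference was 0.74 ± 0.18 (adjusted p = 0.000658).

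**Figure D4:**
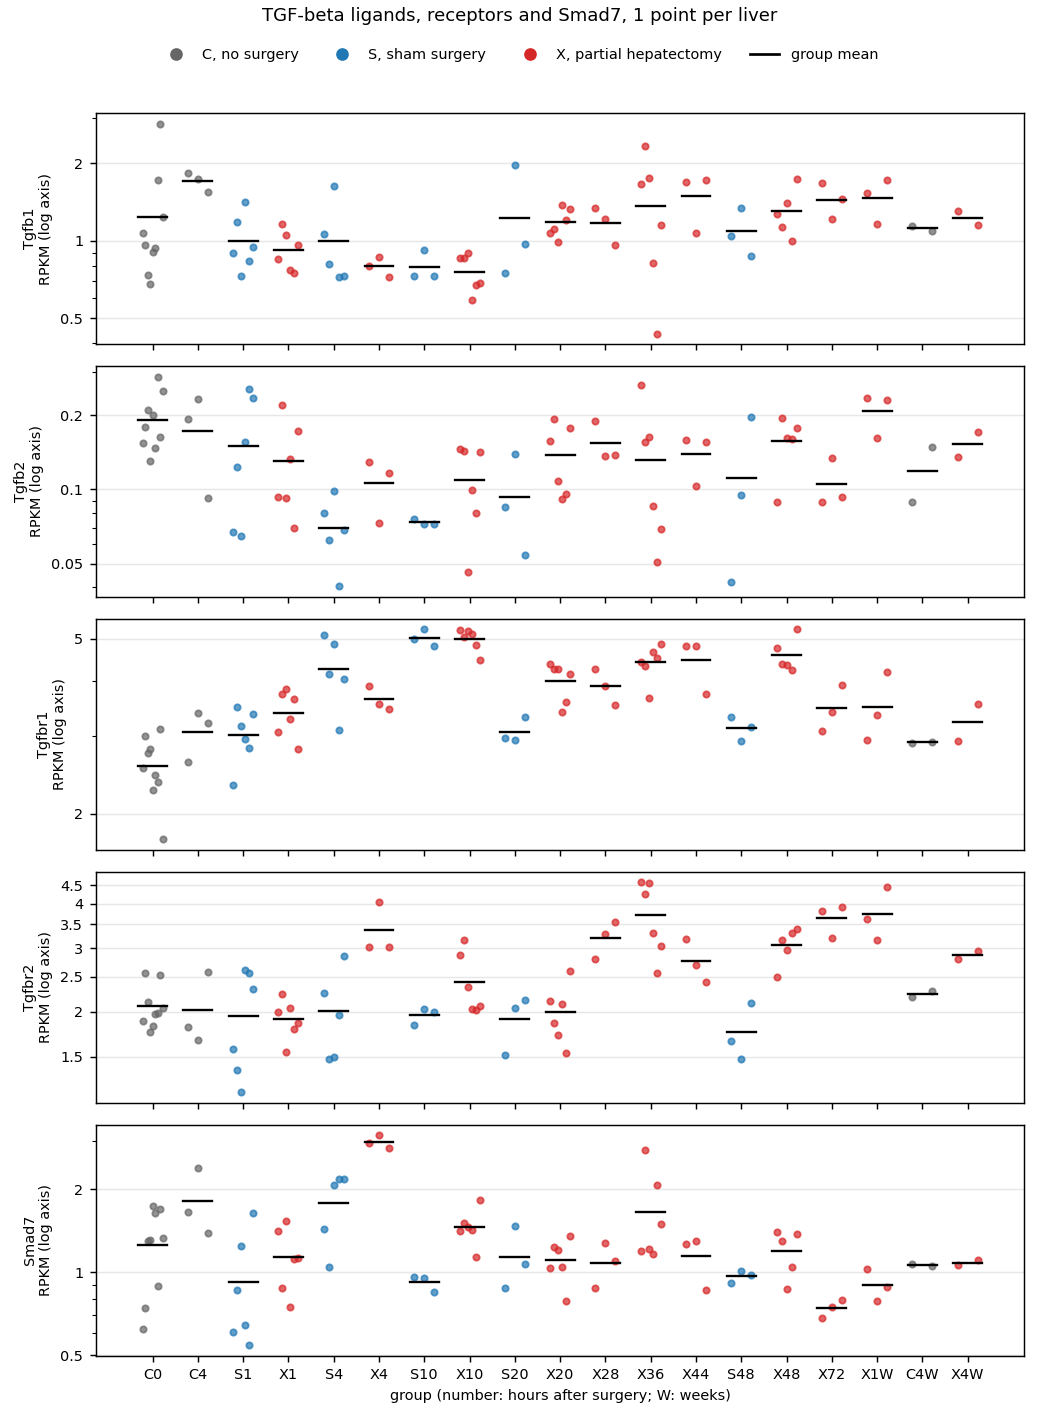
RPKM (log axis) of Tgfb1, Tgfb2, Tgfbr1, Tgfbr2 and Smad7 in each liver, by group, with a point per liver, a bar at the group mean and the same colours as for the activins. Smad7 peaks in X4 (2.82 to 3.14 RPKM), Tgfbr1 is highest in S10 and X10, and Tgfb2 stays at or below 0.287 RPKM.

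Smad7, the inhibitory Smad, was 0.623, 1.31 and 1.74 RPKM in C0. Its highest group was X4, at 2.94, 3.14 and 2.82 RPKM. In S4 it was 1.44, 1.04, 2.07, 2.17 and 2.17 RPKM and in unoperated C4 livers 1.66, 2.38 and 1.38, so that X4 lay above both without overlap. X4 exceeded S4 by 0.71 ± 0.23 (adjusted p = 0.0286) and C0 by 1.15 ± 0.21 (adjusted p = 4.3e-06). The call against S4 was lost on leaving out S4 replicate 1 or 2 or any of the 3 X4 livers (adjusted p from 0.0642, without S4 replicate 1, to 0.110, without S4 replicate 2). It was also lost with replicates 4 to 6 of both groups alone (3 X4 and 2 S4 livers, 0.41, adjusted p = 0.389), whereas the call against C0 held without each library. At 10 h all 6 PH livers (1.14 to 1.82 RPKM) were above the 3 sham livers (0.960, 0.956 and 0.852), by 0.54 ± 0.22, which was not called (adjusted p = 0.110). At 72 h Smad7 reached its lowest level, 0.684, 0.747 and 0.793 RPKM. The fall from C0 of 0.55 ± 0.21 (−0.55, adjusted p = 0.0254) was lost without any of X72 replicates 1, 2 and 3 or C0 replicates 5, 6 and 8. With C0 replicates 1 to 3 alone it was −0.16 (adjusted p = 0.658).

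Tgfb1 and Tgfb2, the TGF-beta ligands, showed no called difference between PH and sham or against C0 with all livers used. Tgfb1 ran from 0.436 to 2.84 RPKM over the 80 livers, with a median of 1.07. Its C0 livers alone covered 0.680 to 2.84 RPKM, with replicates 7 to 9 at 1.24 to 2.84, and C4 livers stood at 1.83, 1.74 and 1.55. In X36, replicates 1 to 3 were at 1.65 to 2.33 RPKM and replicates 4 to 6 at 0.436 to 1.15. With replicates 1 to 3 of X36 alone Tgfb1 was 0.63 above C0 (adjusted p = 0.00822), whereas all 6 gave 0.09. The differences from sham ran from −0.20 ± 0.26 at 4 h to 0.22 ± 0.26 at 48 h. Other controls gave calls. With C0 replicates 7 to 9 alone Tgfb1 was called lower in X1 (−0.84), X4 (−0.99), X10 (−1.06), X20 (−0.55), S1 (−0.76), S4 (−0.79), S10 (−1.0) and S48 (−0.66), and with replicates 4 to 6 alone it was called higher in X44 (0.66), X72 (0.63) and C4 (0.85). With replicates 1 to 3 alone only C4 was called (0.74). With C4 as the control Tgfb1 was lower in X4 (−0.90, adjusted p = 0.00633) and in S4 (−0.70, adjusted p = 0.0174), whose livers held 0.800, 0.868 and 0.725 RPKM and 1.06, 0.815, 1.64, 0.725 and 0.731. X10 minus C0, at −0.46 ± 0.19 (adjusted p = 0.0277) just under the size needed, was called once the libraries were scaled to 1 common median (−0.63, adjusted p = 0.00187). Tgfb2 rested on 4 to 34.9 estimated reads per library. With no filter on low values its 23 differences ran from −0.46 to 0.19 with 0 called. The log2 scale used understates the change of a gene this low. Tgfb2 was below C0 in S4 (−0.46, limma, adjusted p = 0.000492), S10 (−0.44, adjusted p = 0.00851) and X10 (−0.30, adjusted p = 0.0218). These differences fell short of the size needed for a call. The S4 (0.0404 to 0.0981 RPKM) and S10 livers (0.0723 to 0.0758) lay below all C0 livers (0.130 to 0.287). The X10 livers (0.0463 to 0.146) overlapped C0.

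**Figure D5:**
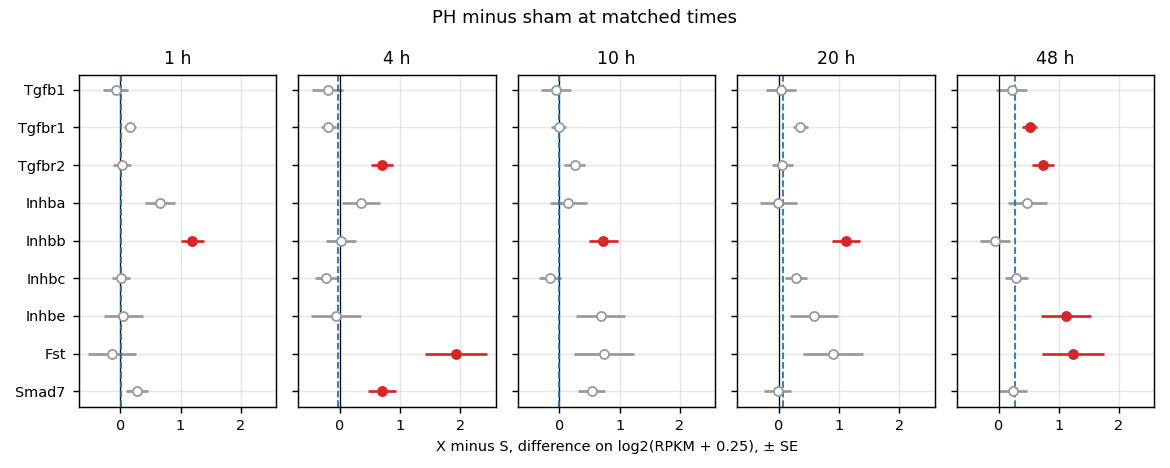
X minus S on log2(RPKM + 0.25) with SE for the 9 members tested, in a panel for each of the 5 matched times, with filled red points for called differences, open grey points for the others and a dashed blue line at the median of all genes tested. Inhbb is called at 1, 10 and 20 h, and at 48 h the dashed line itself lies at 0.27.

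The matched comparisons, taken in order of time, called 1, 3, 1, 1 and 4 of the 9 members, all higher after PH. Among all genes 0.624%, 3.16%, 3.40%, 4.49% and 24.5% were called higher in PH. At 48 h 27.2% of genes were called in either direction, and the median of all genes tested was itself 0.27 higher in PH on the log2 scale. Relative to that median the differences at 48 h were 0.25 for Tgfbr1, 0.47 for Tgfbr2, 0.85 for Inhbe and 0.97 for Fst. Once the libraries were scaled to 1 common median the 4 differences were 0.05, 0.29, 0.64 and 0.85 and none was called, and the share of all called genes that were higher went from 90.1% to 38.8%. At 4 and 20 h that share went from 36.5% to 48.2% and from 63.3% to 43.2%, and the calls of the members at 1, 4, 10 and 20 h were kept. The 9 stellate cell and fibroblast markers summed to 66.9 to 115 RPKM in X48 and 53.9 to 57.6 in S48, the 8 endothelial markers to 19.2 to 24.7 and 27.3 to 31.9, with all of these markers above the detection threshold in both groups. At 4 h the stellate sums were 42.6 to 54.7 (X4) and 36.2 to 57.2 (S4) and the endothelial sums 15.8 to 17.1 and 16.9 to 31.4. The stellate sums also lay apart at 10 h (50.5 to 63.7 in X10 and 33.1 to 48.5 in S10) and at 20 h (64.0 to 86.5 in X20 and 37.7 to 62.2 in S20), while the endothelial sums overlapped. At 1 h both lists overlapped. The 6 neutrophil markers summed to 8.75 to 19.9 RPKM in X1 (mean 13.8) and 2.55 to 10.9 in S1 (mean 5.32). At 4 h these sums were 4.57 to 9.88 in X4 (mean 6.98) and 7.18 to 42.7 in S4 (mean 22.2), so the groups overlapped at both times. The hepatocyte sums lay apart at 20 h, at 25960 to 34290 RPKM in X20 and 35000 to 38200 in S20, and overlapped at 1, 4, 10 and 48 h. At 48 h the 6 cholangiocyte markers summed to 31.7 to 44.4 RPKM in X48 and 19.6 to 29.5 in S48, with 4 of them above the threshold, and the 5 T and B cell markers to 0.0810 to 0.560 and 0.759 to 0.852. Hepatocyte sums were 46870 to 56350 RPKM in C0. Those of X10 (30110 to 35140) and X48 (34060 to 39270) lay below C0, and those of X36 (30970 to 53220) overlapped it. In X36 the stellate sums were 35.0 to 126 and the endothelial sums 5.81 to 26.9. The same sums in C0 were 57.05 to 94.2 and 16.2 to 44.6. The part of these cell types in the differences of the members and of the pathway genes was not tested.

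The PH-minus-sham difference changed between 10 and 48 h by a called amount in 1 of the 9 members, Tgfbr1 (0.53 ± 0.17, adjusted p = 0.0165), in a comparison that called 23.1% of genes with a median of 0.29. With libraries scaled to 1 common median it was 0.06 (adjusted p = 0.843), and without S10 replicate 2, S48 replicate 2, X10 replicate 6 or X48 replicate 5 it was 0.48 to 0.50 and not called.

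At 4 weeks 0 of the 9 members were called between X4W and C4W, with 2 livers a group and 0.0650% of genes called (limma), and 0 had an unadjusted p below 0.05. Inhbc was at 29.8 and 30.4 RPKM in X4W and 41.5 and 43.8 in C4W, a difference of −0.50 ± 0.26 with an unadjusted p of 0.0562. Inhba was at 1.62 and 3.11 RPKM in X4W and 1.40 and 1.47 in C4W.

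Of 87 further genes of the pathway in 6 lists, 73 were tested. The lists cover other ligands, other receptors and co-receptors, signal-carrying Smads, inhibitors, latency and activation, and induced genes. All 6 were chosen with earlier results of these data known. At 1 h 1 of the 73 was called, Klf10 (a gene induced early by TGF-beta), at 17.2 ± 3.5 RPKM (SD) in X1 and 8.26 ± 4.4 in S1 (1.14 ± 0.29, adjusted p = 0.0314). At 4 h 2 were called higher in X4 than in S4 and 3 lower, with 5.48% of all genes called lower. Such calls set PH against sham and give no direction from C0. Id1, an inhibitor of differentiation induced by BMP signals, stood at 18.8 ± 2.7 RPKM in X4 and 5.14 ± 2.2 in S4 (1.94 ± 0.43). Bmp2 (−0.80 ± 0.21) and Smad2 (−0.69 ± 0.16), which carries TGF-beta and activin signals, were lower in X4 than in S4.

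At 10 h 11 of the 73 were called higher in PH than in sham and 0 lower. The 11 included 5 of 13 other ligands and 5 of 15 induced genes. Of all genes 3.40% were called higher and 3.62% lower. The list medians were 0.40 (other ligands) and 0.57 (induced genes), with a median of all genes of 0.00. Those of the other lists were 0.15 (latency and activation), 0.04 (other receptors and co-receptors), −0.02 (signal-carrying Smads) and −0.03 (inhibitors). Id1 was again the furthest (8.31 ± 1.7 against 1.58 ± 0.15 RPKM, 2.20 ± 0.42), followed by Gdf15, a stress-induced ligand of the family (1.71 ± 0.39), and Ctgf, a matrix-associated protein induced by TGF-beta (1.54 ± 0.39). At 20 h 10 were called higher in PH than in sham and 1 lower. Of all genes 4.49% were called higher and 2.61% lower. Among the 20 h calls with a group mean above 0 log2 RPKM the largest differences were in Gdf10 (1.09 ± 0.21), Gdf2, the ligand BMP9 (0.86 ± 0.20), and the fibronectin gene Fn1 (0.81 ± 0.15, 423 against 240 RPKM). Bmp10, a ligand below that level, was higher in X20 than in S20 by 1.39 ± 0.24.

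At 48 h 26 were called higher in PH than in sham and 3 lower, against 24.5% of all genes called higher. The 26 included 7 of 12 latency and activation genes and 8 of 15 induced genes. The medians of these 2 lists were 0.59 and 0.53, beside 0.27 for all genes. Those of the other lists were 0.41 (other ligands), 0.38 (signal-carrying Smads), 0.24 (inhibitors) and 0.14 (other receptors and co-receptors). Col1a1 (2.79 ± 0.48) and Col3a1 (2.17 ± 0.41), collagen genes that are also in the stellate cell list above, were higher in X48 than in S48. Hamp2, a hepcidin gene, was lower (−3.15 ± 0.50). Hamp2 has a near-identical neighbour, Hamp, and reads may be split between them. Against C0, X36 called 29 of the 73 higher and 5 lower (25.7% and 9.29% of all genes) and X48 called 28 higher and 4 lower (30.4% and 7.66%). Scaling to 1 common median took the share of all called genes that were higher from 73.5% to 38.1% in X36 and from 79.9% to 34.1% in X48, where the median of all genes was 0.16 and 0.24 above C0. Timp1, an inhibitor of matrix proteases, was at 3.69 ± 2.6 RPKM in X48 and 0.0632 ± 0.055 in C0.

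Ranked by group mean, neighbours in the order of the 19 groups mostly overlapped, in 18 of 18 neighbouring pairs for Tgfb1, Tgfb2, Tgfbr1, Tgfbr2 and Fst, in 17 for Inhbb and Inhbc, and in 16 for Inhba, Inhbe and Smad7. The breaks for Inhbe were between X28 and S10 and between S10 and X20. For Smad7 X4 stood clear of the next group, C4, and for Inhbb C4W (0.0580 and 0.0402 RPKM) lay below the next group, X4W. The genes whose group means followed each member most closely were sought for the 4 members of widest range among 11560 detected genes with a group mean above 0 log2 RPKM. Over the 19 groups, which share libraries and scaling, these were Zfp3 (r = 0.884), Fbp1 (0.867) and Acot8 (0.859) for Inhbe, Trim44 (0.936), Asah2 (0.924) and Spg11 (0.920) for Inhba, Mfsd2a (0.896) and Pfkfb2 (0.883) among the closest for Inhbb, and Zc3h12d (0.728), Fundc2 (0.709) and Postn (0.706) for Fst. These are descriptions with no test.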

How the data were processed

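Poly(A) RNA of single livers was sequenced strand-specifically. The authors deposited 1 table of log2 RPKM per gene, made per the labels and methods with TopHat2 2.0.13, SAMtools 0.1.19 and featureCounts on mm9 with Ensembl genes; a read with several positions was divided among them, which could move genes with near-identical copies. The lowest value, −14.29 log2, stands for no read and was taken as 0 RPKM. Of 84 value columns 80 matched a labelled sample. The other 4 bear the name of sham livers at 4 h with replicate numbers above the 5 labelled ones, match no label and were not used, so X4 against S4 rests on 3 and 5 livers. Of 87 labelled samples, 7 (3 of X4, X60 and 1 of X4W) had no matching column and were not analysed here.

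Depth was recovered from the steps of low values, and it limits the precision of low members. Since 83.1% (median) of low values were whole reads within 0.05, no count test was run. The lowest share was 43.8%, in X28 replicate 2, and the next lowest 79.3%. The depth and read estimates of X28 replicate 2 are therefore less certain. Groups were compared with limma 3.58.1 in R 4.3.3 on log2(RPKM + 0.25), with all 19 groups in 1 fit with a variance trend. P-values were adjusted by Benjamini-Hochberg over 15396 genes, and the SE is that of the fit. A call needed an adjusted p below 0.05 and a difference above 0.5 on the log2 scale. The fit was tested on simulated data. Members and gene lists were chosen with earlier results of these data known. All 10 members are named. From the 6 pathway lists, up to 3 called genes with the largest difference and a group mean above 0 log2 RPKM are named per comparison. The alternatives were other pseudocounts, filters, scalings and fits, other control livers, subsets by replicate number, and leaving out each library. Subsets by PH replicate number alone were added after seeing the data. Promoters come from RefSeq on GRCm38.p6, with entries for 8 of 9 members searched; Smad7 was not searched. Of 160 pairs of livers within groups 0 were identical. A gene that the rule for list genes and the search for like patterns name is not reported here.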

Additional observations from a re-analysis of the deposited data

Results flagged for a closer look

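In 80 sets of livers (10 genes in the 8 groups of 4 to 10), 2 had 1 liver far from the others by Dixon's test, which flags about 1 in 20 by chance. Tgfb1 in C0 replicate 8 was at 2.84 RPKM, with the nearest C0 liver at 1.71, and Inhbb in X48 replicate 1 was at 0.370 RPKM, with the nearest X48 liver at 0.211. The PH-minus-sham difference of Tgfbr1 was 0.53 larger at 48 h than at 10 h by a test of that difference, in a comparison whose median over all genes was 0.29.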

How the results depend on the processing

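Of 62 called member differences, 23 were called under every alternative and 43 were called when each library was left out in turn, and none changed sign. Of the alternatives for differences that were not called, 94 of 3349 gave a call. The counts of members called moved by more than 1.5 times as follows. With the groups compared alone X1 against S1 had 0, X4 against S4 0, X10 against S10 2, C4 against C0 0 and the 48 h against 10 h difference 2. A pseudocount of 0.1 gave X10 against S10 0. A pseudocount of 1 gave X10 against S10 0, X48 against S48 2, X28 against C0 2, X48 against C0 1, S10 against C0 2 and the 48 h against 10 h difference 0. No filter on low values gave X10 against S10 0 and X48 against S48 2. Scaling to 1 common median gave X48 against S48 0, X36 against C0 3, X44 against C0 0 and X48 against C0 0. C0 replicates 1 to 3 alone gave X28 2, X44 1, X48 1, S20 2 and C4 2, replicates 4 to 6 alone gave X44 7, X48 5, X72 5, X1W 4, S1 1, S4 3 and C4 3, and replicates 7 to 9 alone gave X1 2, X48 1, S1 1, S48 2 and C4 0. With C0 as its control X4W had 1. Replicates 4 to 6 of both groups gave X4 against S4 1, and replicates 1 to 3 of both gave X10 against S10 2. PH replicates 1 to 3 alone and 4 to 6 alone, chosen after seeing the data, gave X10 against S10 0 each. The cause of these changes was not tested.

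Leaving out 1 library gave 1 to 3 members in X4 against S4, 0 to 1 in X10 against S10, 2 to 4 in X48 against S48, 1 to 3 in X48 against C0, 0 to 1 in S1 against C0, 0 to 2 in C4 against C0 and 0 to 2 in the 48 h against 10 h difference. With the replicate number as a block C4 against C0 had 3 members and X4 against S4 2, where Smad7 was lost (adjusted p = 0.0690). Same-numbered PH and sham livers deviated together with correlations from −0.186 to 0.273, and 6 of 17 livers correlated best with their own number, so the numbers were not used as pairs. The comparison of X60 with C0 was not run. Depth limits Tgfb2 and the lower values of Inhbb and Fst, which rest on as few as 4 estimated reads.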
